A study of Mus musculus with 6 samples.

Results

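The mitosis and G2/M genes described here are 34 genes whose products carry a cell from the end of G2 through chromosome segregation to cytokinesis. They were taken by symbol from a list of cyclin, kinase, checkpoint, kinetochore, spindle and cytokinesis genes. Each symbol matched 1 of the 53465 Ensembl identifiers in the deposited table. All 34 genes passed the filter on low counts that left 14217 genes for testing.

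EMT6 is a mouse mammary carcinoma cell line that serves as a model sensitive to PD-1 pathway inhibitors. Polyadenylated RNA was sequenced from 3 samples of EMT6 cells cultured with an antibody against PD-L1 (αPD-L1), named PTRVITRO here and resistant in the labels, and from 3 samples cultured with an isotype control antibody, named PVITRO here and parental in the labels. Both antibodies were kept in RPMI medium with serum at 0.5 μg/ml for more than 4 weeks. Nothing in the labels states if replicates came from different cultures, and the study's figure legend for these cells describes replicates as technical where it does not specify otherwise. The p-values, SDs, SEs and intervals therefore measure only the spread between these samples, which may be technical. Any state of the cells that both antibodies or the culture itself bring about is shared by the groups and does not show in the comparison.

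In dividing cells, CDK1 bound to B-type cyclins starts mitosis, and Aurora and Polo-like kinases build the spindle. Kinetochores attach chromosomes to its microtubules, and the spindle checkpoint holds back the anaphase-promoting complex until every chromosome is attached. Most of these genes are transcribed late in the cell cycle, under repression in G0 and G1 by the DREAM complex and activation by B-MYB and FOXM1, acting at promoter elements named CHR (cell cycle genes homology region) and at CCAAT boxes bound by NF-Y. Their mRNA level in a culture is therefore widely used as a readout of proliferation. In bulk RNA, a larger share of cells in G2 and mitosis cannot be told apart from more RNA per cell in that phase.

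The promoter sequences of these genes were searched for the letters of both elements. The genes were taken by symbol and not by sequence. Since such genes are known for these elements, the shares are descriptions and not independent of the choice. In RefSeq promoter windows of GRCm38.p6, which run from 250 bases before to 50 bases after each transcription start, 28 of the 34 genes had a window. The letters TTTGAA or TTCGAA of a CHR element, on either strand, were present in 22 of these 28 genes (78.6%), against 21.7% of all 27025 genes with a window and 16.5% of the 9680 tested genes with one. The letters CCAAT of an NF-Y box, on either strand, were present in 21 (75%), against 41.1% of all genes and 43.3% of tested genes. Both were present in 19 (67.9%), against 8.61% of all genes and 6.98% of tested genes. TTCGAA reads the same on both strands, and a CHR and an NF-Y match can share at most 1 base. A match of letters is not a measured binding site.

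The stretches below run from 120 bases before to 30 bases after the start, 5′ to 3′ on the gene's strand, with CHR and NF-Y letters of either strand in capitals. Cenpf, Cdk1 and Hmmr are shown because their levels did not overlap between the groups, Cdc20, Ccnb2, Kif11 and Ccnb1 because their levels did, and Nuf2 as a gene whose levels did not overlap and whose window holds neither set of letters.
Cenpf, chr1:189688057-189688206, minus strand: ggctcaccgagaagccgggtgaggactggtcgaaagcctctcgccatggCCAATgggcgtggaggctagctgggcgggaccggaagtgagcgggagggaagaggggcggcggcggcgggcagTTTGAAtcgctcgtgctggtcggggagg
Cdk1, chr10:69352883-69353032, minus strand: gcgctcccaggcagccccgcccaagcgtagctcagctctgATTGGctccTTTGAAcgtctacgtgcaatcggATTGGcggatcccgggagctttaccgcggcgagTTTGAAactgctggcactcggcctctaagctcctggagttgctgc
Hmmr, chr11:40733408-40733557, minus strand: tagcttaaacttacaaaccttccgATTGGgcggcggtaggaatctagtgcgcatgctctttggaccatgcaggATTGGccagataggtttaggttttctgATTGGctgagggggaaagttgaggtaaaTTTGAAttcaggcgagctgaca
Nuf2, chr1:169531435-169531584, minus strand: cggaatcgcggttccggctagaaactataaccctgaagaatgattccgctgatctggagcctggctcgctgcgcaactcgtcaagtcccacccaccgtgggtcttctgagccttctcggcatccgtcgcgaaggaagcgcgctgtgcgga
Cdc20, chr4:118437314-118437463, minus strand: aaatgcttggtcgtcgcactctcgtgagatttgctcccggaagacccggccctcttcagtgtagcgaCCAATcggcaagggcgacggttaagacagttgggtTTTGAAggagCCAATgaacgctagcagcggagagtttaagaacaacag
Ccnb2, chr9:70421525-70421674, minus strand: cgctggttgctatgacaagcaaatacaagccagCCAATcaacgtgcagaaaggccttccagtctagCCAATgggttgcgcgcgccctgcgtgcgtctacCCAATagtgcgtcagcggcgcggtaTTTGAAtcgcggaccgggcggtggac
Kif11, chr19:37376262-37376411, plus strand: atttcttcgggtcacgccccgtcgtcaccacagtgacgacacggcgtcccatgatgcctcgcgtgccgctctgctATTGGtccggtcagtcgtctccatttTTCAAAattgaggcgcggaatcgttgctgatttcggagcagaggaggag
Ccnb1, chr13:100786457-100786606, minus strand: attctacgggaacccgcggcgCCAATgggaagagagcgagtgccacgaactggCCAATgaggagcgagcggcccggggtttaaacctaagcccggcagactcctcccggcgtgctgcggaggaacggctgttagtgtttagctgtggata

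Within these stretches, counting from 0 at the first transcribed base, the CHR letters began at 2 in Cenpf, at 4 in Ccnb2, at 8 in Hmmr, at -18 in Cdc20 and at -19 in Kif11. Cdk1 held CHR letters at -71 and -15 and NF-Y letters on the opposite strand at -80 and -48. Ccnb1, a B-type cyclin gene, held NF-Y letters at -99 and -67 but neither TTTGAA nor TTCGAA in its window. Other spellings of a CHR element were not searched in any window. Neither set was present in the windows of 4 genes, Birc5, Mad2l1, Nuf2 and Nusap1. Only 23 of the 28 windows end in the first bases of a GENCODE transcript of the gene, and the Mad2l1 window ends before the gene's GENCODE start, so a missing match applies to the RefSeq window alone. The 22 genes with CHR letters had a median log2 fold change between the groups of 0.06, with 14 of them above 0, and the 6 genes without had a median of 0.09, with all 6 above 0.

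**Figure D1:**
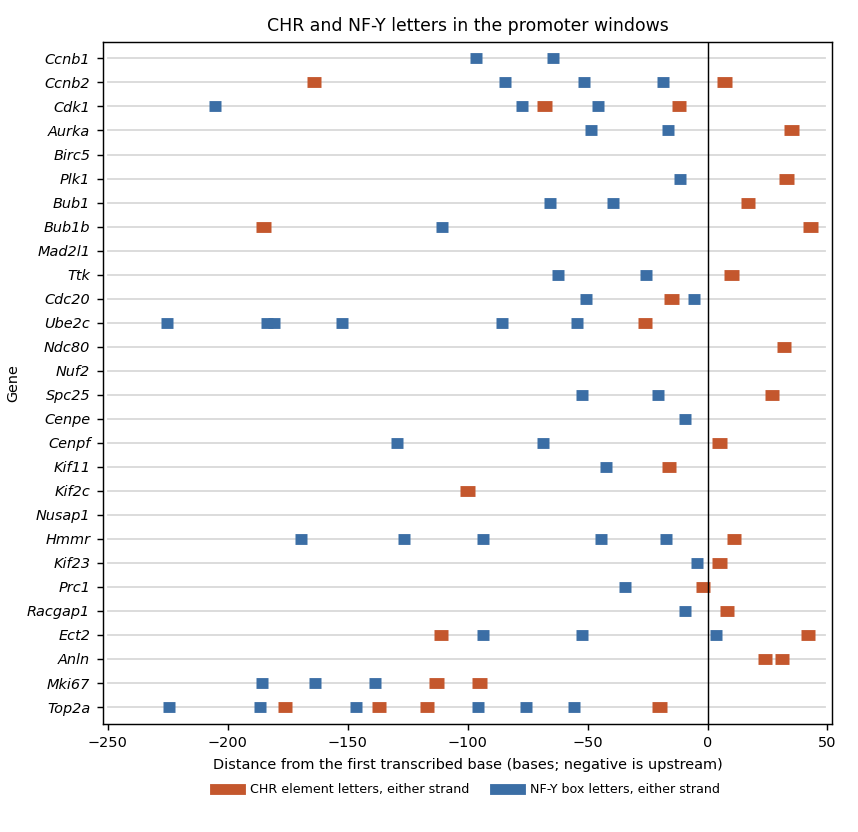
Position of CHR and NF-Y letters in the promoter windows of 28 mitosis and G2/M genes (x axis, bases from the first transcribed base; y axis, genes). CHR letters (orange) lie mostly close to the start and NF-Y letters (blue) mostly upstream of them, and 4 genes hold neither.

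The total count per sample ran from 17757341 in PTRVITRO replicate 3 to 32426739 in PTRVITRO replicate 1, so that a count of 3 corresponds to 0.169 and 0.0925 CPM. CPM is the usual unit of a gene's count relative to its library's total, and every CPM below has totals scaled by the upper quartile. Counts of the 34 genes ran from 283 (Cdc25c) to 11110 (Anln) in a library, and the genes together took between 0.265% and 0.289% of a library's counts. Krt8 and Krt18, keratins of simple epithelium, were at 1031 to 1128 and 480 to 568 CPM, while the epithelial cadherin gene Cdh1 had at most 3 counts in any library and Epcam 1.24 to 2.41 CPM. The mesenchymal gene Vim was at 1840 to 1972 CPM, Cdh2 had at most 3 counts, and the sum of 6 mesenchymal markers was 8467 to 9354 CPM in PVITRO and 7775 to 8249 CPM in PTRVITRO. Most of this sum was Fn1, at 6252, 7167 and 6514 CPM in PVITRO and at 5506, 6088 and 6003 CPM in PTRVITRO. Zeb1, at 11.8 to 15.8 CPM, was also lower in PTRVITRO, while Vim, Twist1 and Snai2 overlapped between the groups. Of 9 immune markers, 8 had at most 3 counts in every library (Ptprc, Cd3d, Ms4a1 and Adgre1 had none), and the ninth, Cd68, was at 11.3 to 13.2 CPM. Of 4 endothelial markers, Cdh5 and Kdr had at most 3 counts, and the sum of all 4 was at most 0.2997 CPM. The fibroblast and pericyte markers Thy1 and Lum had no counts, and Pdgfra, Pdgfrb, Dcn and Acta2 were detected, with a sum over the list of 158.8 to 170.0 CPM in PVITRO and 134.5 to 151.8 CPM in PTRVITRO. Their part in the results was not tested. Cd274, which encodes PD-L1, was at 17.9, 15.8 and 17.8 CPM in PVITRO and 18.5, 18.03 and 17.3 CPM in PTRVITRO.

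The comparison asked whether long exposure to αPD-L1 alone goes with a change in the mitotic program of the tumor cells. None of the 34 genes passed the test (edgeR quasi-likelihood F test, Benjamini-Hochberg adjusted p below 0.05 over all 14217 genes), where 0.246% of all tested genes did. The unadjusted p was below 0.05 for Cenpf, Mad2l1, Ndc80, Cdk1, Cenpe, Hmmr and Dlgap5, that is for 7 genes, or 20.6% of the 34 genes beside 11.4% of all tested genes. All 7 had higher values in PTRVITRO, a direction and threshold met by 5.26% of all tested genes, and 0 were lower, beside 6.13%. The largest unadjusted p of any gene that passed the adjusted threshold was 0.000112, and the smallest among these 34 genes was 0.00141, for Cenpf.

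The sizes were small. The log2 fold changes (PTRVITRO minus PVITRO) ran from -0.08 to 0.21, with a median of 0.06, or 4.04% on the linear scale, beside a median of -0.004 over all tested genes. They were above 0 in 23 of the 34 genes (67.6%) and in 48.5% of all tested genes. The 95% intervals of all 34 genes lay between -0.24 and 0.32, so a change of more than 1.25-fold up or to less than 0.847 of the PVITRO level lies outside the interval of every gene taken singly. In 23 genes the whole interval lay within 0.2 of 0 on the log2 scale. The groups did not overlap in 10 genes (29.4%), each higher in PTRVITRO, beside 8.27% of all tested genes for that direction, 9.33% for the opposite one and 17.6% for either. These lists and genes were chosen with earlier results known, and the shares are descriptions.

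**Figure D2:**
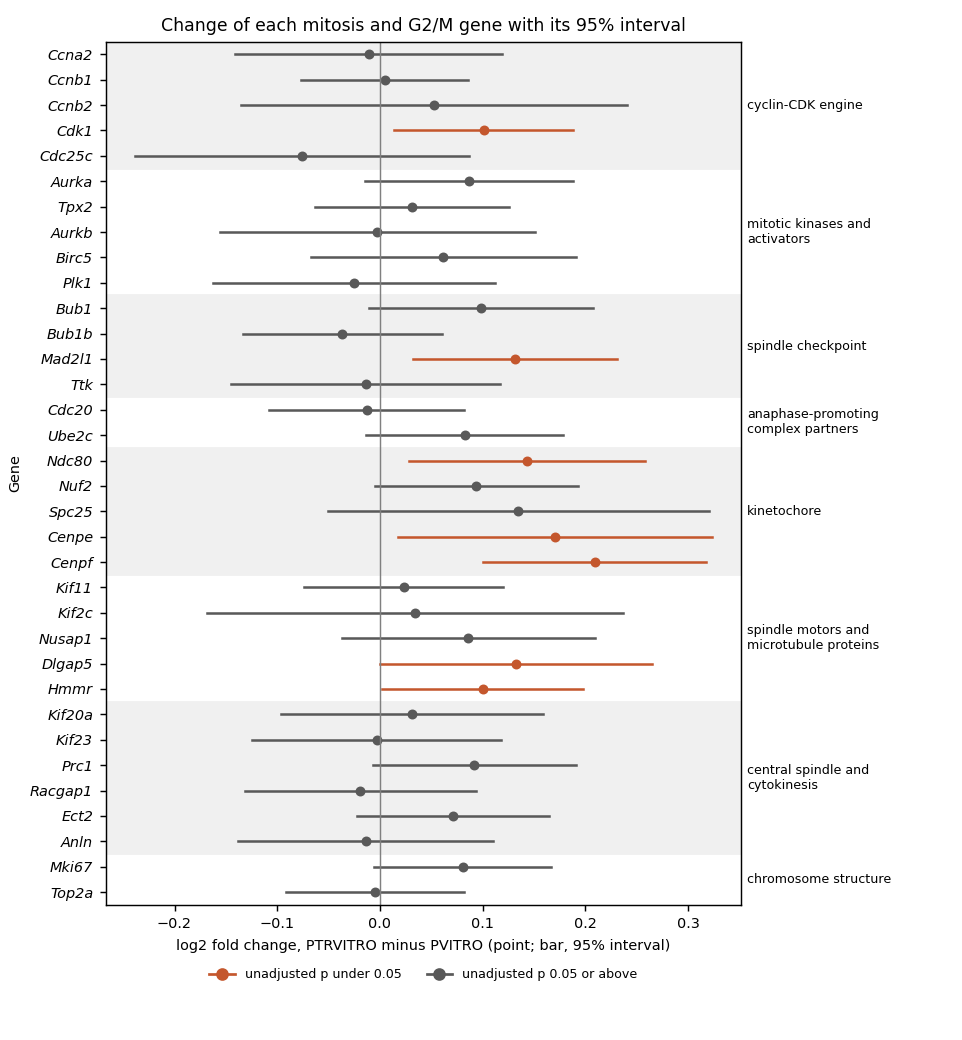
Log2 fold change of each mitosis and G2/M gene (x axis, points) with its 95% interval (bars), grouped by role. The 7 genes with an unadjusted p below 0.05 (orange) lie above 0, and 15 genes lie within 0.05 of 0.

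The cyclin-CDK engine held 5 genes, none of which passed the test. Cdk1 (ENSMUSG00000019942.13, chr10:69335146-69352938), the kinase that drives entry into mitosis, was at 206, 197 and 195 CPM in PVITRO and at 222, 211 and 208 CPM in PTRVITRO. All PTRVITRO libraries lay above all PVITRO libraries, and the log2 fold change was 0.10 with an SE of 0.0395 (edgeR, adjusted p 0.355). Its partner Ccnb1 (ENSMUSG00000041431.16, chr13:100778650-100786570), cyclin B1, was at 68.3, 67.7 and 68.2 CPM in PVITRO and at 68.3, 68.5 and 68.0 CPM in PTRVITRO. This was the smallest spread within groups of the 34 genes (0.00601 on the log2 scale), and the log2 fold change was 0.0048 with an interval from -0.08 to 0.09. Transcripts of 4 other genes in the table, among them Ccnb1-ps, share at least 95% identity with Ccnb1 over at least 200 bases. They held 4.84% of the summed CPM, and the sum was 71.7 ± 0.575 CPM in PVITRO and 71.7 ± 0.553 CPM in PTRVITRO (SD, n = 3).

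Ccnb2, the other B-type cyclin, was at 48.2, 43.6 and 44.9 CPM in PVITRO and at 54.0, 45.8 and 40.9 CPM in PTRVITRO. Its highest and its lowest value both came from PTRVITRO, in replicates 1 and 3, and its log2 fold change was 0.05 (SE 0.0853). Ccna2, cyclin A2 of S phase and G2, had a log2 fold change of -0.01 and overlapped between the groups. Cdc25c, a phosphatase that activates CDK1, had the lowest fold change of the 34 genes. It was at 17.7, 15.8 and 16.95 CPM in PVITRO and at 16.8, 14.96 and 15.9 CPM in PTRVITRO, a log2 fold change of -0.08 with an interval from -0.24 to 0.09 (adjusted p 0.739).

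Among the mitotic kinases and their activators, 3 of 5 values were above 0 and none passed the test. Aurka (ENSMUSG00000027496.15), the Aurora kinase of centrosomes and spindle poles, was at 94.7, 90.1 and 86.0 CPM in PVITRO and at 97.5, 97.5 and 92.3 CPM in PTRVITRO. Only PTRVITRO replicate 3 lay below the highest PVITRO library, and the log2 fold change was 0.09 (SE 0.0457, adjusted p 0.517), or 0.055 without PVITRO replicate 3. Tpx2, which activates Aurora A on spindle microtubules, had a log2 fold change of 0.03. Plk1 (ENSMUSG00000030867.7), Polo-like kinase 1, was at 52.6, 49.3 and 46.4 CPM in PVITRO and at 51.2, 49.4 and 44.3 CPM in PTRVITRO, with the lowest value in PTRVITRO and the highest in PVITRO (log2 fold change -0.03, interval -0.16 to 0.11). Aurkb and Birc5 (survivin), the kinase and a targeting subunit of the chromosomal passenger complex, had log2 fold changes of -0.0027 and 0.06.

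In the spindle checkpoint group, 2 of 4 values were above 0 and none of the genes passed the test. Mad2l1 (ENSMUSG00000029910.14, chr6:66535390-66547220), whose product MAD2 binds and inhibits CDC20, was at 64.0, 60.1 and 63.8 CPM in PVITRO and at 66.6, 71.3 and 67.7 CPM in PTRVITRO. The groups did not overlap, and the log2 fold change was 0.13 (SE 0.0450, unadjusted p 0.0141, adjusted p 0.292 with edgeR). Bub1 (ENSMUSG00000027379.13), a kinase of the unattached kinetochore, was at 56.0, 51.6 and 51.9 CPM in PVITRO and at 59.3, 56.6 and 54.4 CPM in PTRVITRO. Here PVITRO replicate 1 lay above PTRVITRO replicate 3, and the log2 fold change was 0.10 (SE 0.0496, adjusted p 0.498). Bub1b, whose product BubR1 is part of the checkpoint complex that inhibits the anaphase-promoting complex, was at 51.5, 50.1 and 49.99 CPM in PVITRO and at 51.1, 48.8 and 47.6 CPM in PTRVITRO. It had the second lowest log2 fold change of the 34 genes, -0.04 with an interval from -0.13 to 0.06, and overlapping groups. Ttk, the checkpoint kinase Mps1, had -0.01.

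The anaphase-promoting complex was represented by its coactivator Cdc20 and its ubiquitin-conjugating enzyme Ube2c. Cdc20 (ENSMUSG00000006398.15) was at 74.9, 73.5 and 71.6 CPM in PVITRO and at 70.4, 75.8 and 71.9 CPM in PTRVITRO, so that the PTRVITRO libraries held both its lowest and its highest value (log2 fold change -0.01, interval -0.11 to 0.08). Ube2c was at 127.3, 125.8 and 125.7 CPM in PVITRO and at 141.5, 131.4 and 127.8 CPM in PTRVITRO. Its groups did not overlap, by a margin of less than 1 CPM between PVITRO replicate 1 and PTRVITRO replicate 3, and the log2 fold change was 0.08 (SE 0.0434, adjusted p 0.513), or 0.0395 without PTRVITRO replicate 1.

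All 5 kinetochore genes had higher values in PTRVITRO, with a median log2 fold change of 0.14, the largest of the 8 roles. Cenpf (ENSMUSG00000026605.14, chr1:189640606-189688086), a large coiled-coil protein of the outer kinetochore that accumulates in G2, was at 26.9, 26.4 and 26.2 CPM in PVITRO and at 30.75, 30.99 and 30.02 CPM in PTRVITRO. The groups were far apart against their spread, with 26.5 ± 0.392 CPM against 30.6 ± 0.501 CPM (SD, n = 3). The log2 fold change was 0.21 (SE 0.0491, interval 0.10 to 0.32), the largest of the 34 genes, with an unadjusted p of 0.00141 and an edgeR adjusted p of 0.140 (0.0754 to 0.443 across the alternative fits). It stayed between 0.20 and 0.23 when any 1 library was left out.

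Cenpe (ENSMUSG00000045328.11), a kinesin that moves chromosomes to the spindle equator, was at 50.1, 53.5 and 43.7 CPM in PVITRO and at 54.1, 58.4 and 53.3 CPM in PTRVITRO. Its groups overlapped, since PVITRO replicate 2 lay above PTRVITRO replicate 3, and PVITRO replicate 3 was the lowest of the 6 libraries. The log2 fold change was 0.17 (SE 0.0693, adjusted p 0.381), and it was 0.0959 without PVITRO replicate 3. Cenpe and Cenpf had the largest fold changes of the 34 genes.

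Ndc80, Nuf2 and Spc25 encode subunits of the NDC80 complex, which grips the microtubule. Ndc80 (ENSMUSG00000024056.9, chr17:71496100-71526857) was at 38.1, 33.98 and 36.0 CPM in PVITRO and at 39.5, 39.3 and 40.4 CPM in PTRVITRO, with no overlap and a log2 fold change of 0.14 (SE 0.0520, unadjusted p 0.0191, edgeR adjusted p 0.311). A related transcript, 2700099C18Rik, shares a 303-base stretch with it, and the sum of Ndc80 with this gene and Gm47120 was 48.1 ± 1.48 CPM in PVITRO and 53.1 ± 0.680 CPM in PTRVITRO (SD, n = 3). Together 2700099C18Rik and Gm47120 held 25.1% of the summed CPM. Nuf2 was at 42.6, 40.1 and 41.7 CPM in PVITRO and at 43.7, 45.2 and 43.7 CPM in PTRVITRO, also with no overlap (log2 fold change 0.09, adjusted p 0.463). Spc25 overlapped, at 21.7, 17.7 and 20.9 CPM in PVITRO and 23.2, 22.1 and 20.4 CPM in PTRVITRO, with a log2 fold change of 0.13 (SE 0.0841), which was 0.0465 without PVITRO replicate 2. Spc24, the remaining subunit of the complex, is not among the 34 genes, and it was at 44.6, 45.1 and 42.1 CPM in PVITRO and 43.2, 43.9 and 46.75 CPM in PTRVITRO, with overlapping groups and a log2 fold change of 0.02 (interval -0.09 to 0.13).

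The 5 spindle motor and microtubule genes also all had values above 0, with a median log2 fold change of 0.09, and none passed the test. Hmmr (ENSMUSG00000020330.16), a spindle pole protein, was at 50.8, 52.7 and 48.5 CPM in PVITRO and at 55.0, 54.2 and 53.8 CPM in PTRVITRO, with no overlap (log2 fold change 0.10, SE 0.0442, unadjusted p 0.0455, edgeR adjusted p 0.427). Dlgap5 (HURP), which stabilizes microtubules near chromosomes, was at 21.1, 20.3 and 19.3 CPM in PVITRO and at 22.5, 21.5 and 22.4 CPM in PTRVITRO. It did not overlap either, and its log2 fold change was 0.13 (SE 0.0599, unadjusted p 0.0497, adjusted p 0.438). Kif11 (ENSMUSG00000012443.3), the motor that pushes the spindle poles apart, was at 79.6, 81.6 and 75.3 CPM in PVITRO and at 80.99, 81.6 and 77.5 CPM in PTRVITRO, and its values overlapped (log2 fold change 0.02, interval -0.07 to 0.12). Kif2c, a microtubule depolymerase of the centromere, had 0.03 with the largest SE of the 34 genes (0.0919), and Nusap1 had 0.09 (0.1484 without PVITRO replicate 1).

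In the central spindle and cytokinesis group, 3 of 6 values were above 0 and none passed the test. Anln (ENSMUSG00000036777.8), anillin of the contractile ring, was at 327, 371 and 314 CPM in PVITRO and at 321, 340 and 342 CPM in PTRVITRO, with its highest value in PVITRO replicate 2 (log2 fold change -0.01, interval -0.14 to 0.11). Ect2, the exchange factor that activates RhoA at the division plane, was at 80.8, 84.8 and 77.6 CPM in PVITRO and at 85.3, 85.3 and 85.1 CPM in PTRVITRO. The PTRVITRO libraries were nearly equal and lay just above the highest PVITRO library (log2 fold change 0.07, SE 0.0424, adjusted p 0.568; 0.0426 without PVITRO replicate 3). Prc1, which bundles the central spindle, had 0.09 (0.0499 without PVITRO replicate 3), and Kif20a, Kif23 and Racgap1 had 0.03, -0.0033 and -0.02; Kif23 and Racgap1 form the centralspindlin complex.

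Of the chromosome structure genes, Mki67 (ENSMUSG00000031004.8, chr7:135689784-135716361), the antigen used clinically to count cycling cells, was at 105.6, 101.7 and 105.8 CPM in PVITRO and at 111.1, 112.5 and 107.1 CPM in PTRVITRO. Its groups did not overlap, and the log2 fold change was 0.08 (SE 0.0390, unadjusted p 0.0638, edgeR adjusted p 0.471). Top2a (ENSMUSG00000020914.17), topoisomerase II alpha, was at 265, 252 and 247 CPM in PVITRO and at 260, 257 and 245 CPM in PTRVITRO. These values overlapped fully, and the log2 fold change was -0.0048 with an interval from -0.09 to 0.08. Both genes are standard proliferation markers, and the intervals of their changes overlap.

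**Figure D3:**
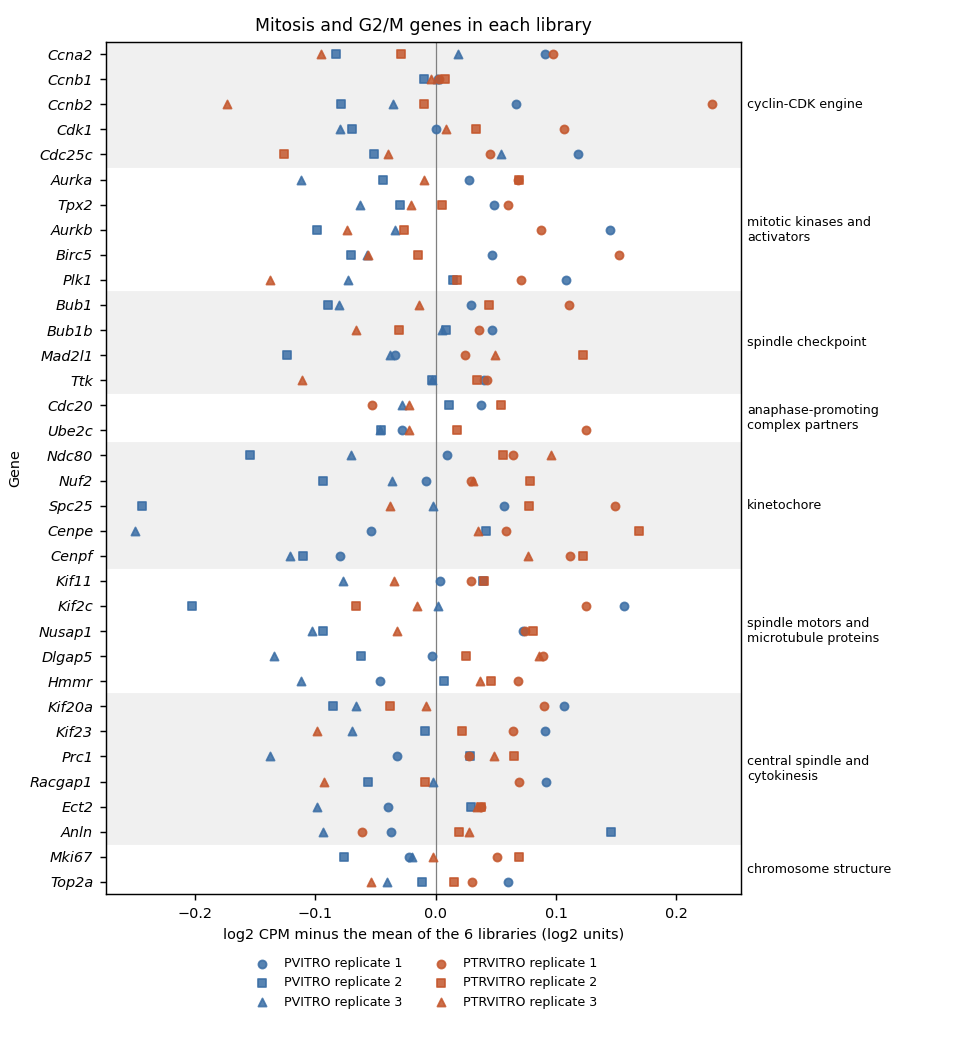
Level of each mitosis and G2/M gene in the 6 libraries, as log2 CPM minus the gene's mean over the libraries (x axis, log2 units; blue, PVITRO; orange, PTRVITRO; marker shape, replicate). The groups separate for 10 genes, Cenpf, Ndc80 and Mki67 among them, whereas for many genes both replicate 1 libraries (circles) lie to the right.

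Levels of different genes were compared per kilobase of the principal transcript of each gene. On this scale Ube2c was highest, at 134.4 CPM per kilobase, followed by Anln at 72.9 and Birc5 at 66.7, and Cenpf was lowest at 2.56. Per kilobase of all annotated exons, which are longer for most genes, Ube2c was again highest, at 49.97, and Cenpf lowest, at 1.85, but Cdk1 (41.9) and Cdc20 (39.1) came next, above Anln (37.0), and Birc5 was at 18.6. The median spread within groups was 0.0604 on the log2 scale for the 34 genes and 0.0603 for the 7527 genes in the same range of CPM.

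Much of the variation of these genes ran between libraries of the same group. PVITRO replicate 1 had the highest CPM of its group in 27 of the 34 genes and the lowest in none, where 34.8% of all tested genes had their highest PVITRO value in this library. Among the PTRVITRO libraries, replicate 1 was highest in 20 genes (41.1% of all tested genes) and replicate 3, the shallowest library, was lowest in 24 (39.4%). Many of the 34 genes were highest in replicate 1 of both groups, among them Ccnb2, Birc5, Aurkb, Plk1 and Kif23, named after their values were seen.

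The mean of log2 CPM over the 34 genes, given as the deviation from the mean of the 6 libraries, was 0.03, -0.05 and -0.06 in PVITRO and 0.07, 0.03 and -0.02 in PTRVITRO. The groups therefore overlapped. PVITRO replicate 1 lay above PTRVITRO replicates 2 and 3, and the difference between the group means, 0.0510, was close to the SD within groups of 0.0470. The order depends on the scaling, since PVITRO replicate 1 lay below PTRVITRO replicate 2 with TMM (0.0264 against 0.0308) and without a scaling factor (0.0288 against 0.0407), and above PTRVITRO replicate 3 under each scaling. The difference was 0.0523 with TMM (SD 0.0426) and 0.0634 without a scaling factor (SD 0.0479). The same deviations over all tested genes ran from -0.03 to 0.02. The median log2 fold change of the 34 genes was 0.0158 without PTRVITRO replicate 1, 0.0859 without PTRVITRO replicate 3 and 0.0963 without PVITRO replicate 1, so these libraries move the size of the difference by more than 1.5 times.

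**Figure D4:**
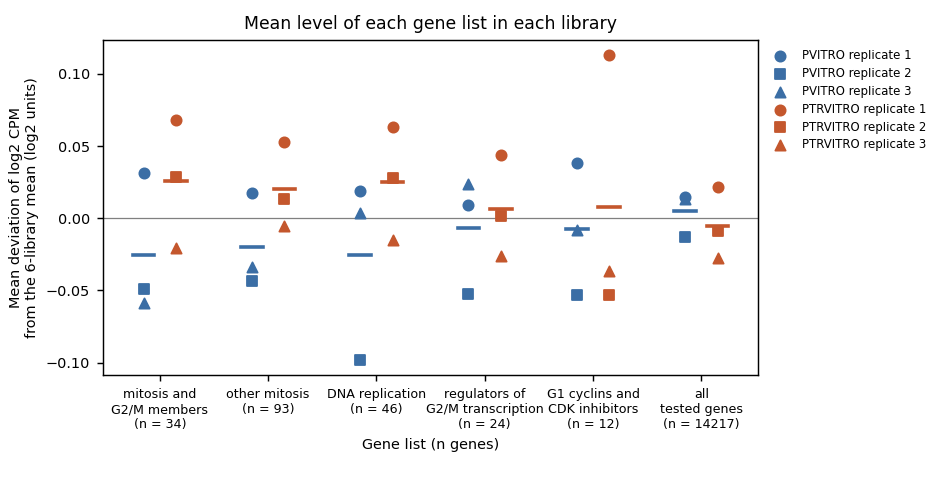
Mean deviation of log2 CPM from the 6-library mean (y axis) for each gene list (x axis) in each library, with bars at the group means. For the 34 mitosis and G2/M genes the values run from -0.06 to 0.07 and the groups overlap.

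The rest of the mitotic program was read from a list of 93 other mitosis genes, all of which were tested. None passed the test over all genes. There were 64 values above 0 and 29 below, with a median log2 fold change of 0.03, and 12 genes (12.9%) had an unadjusted p below 0.05, all higher in PTRVITRO. Over all tested genes this share was 11.4%, and 5.26% for that direction. The smallest p belonged to G2e3, a ubiquitin ligase named for its G2 expression, at 27.0, 26.7 and 27.1 CPM in PVITRO and 30.3, 30.5 and 35.0 CPM in PTRVITRO (log2 fold change 0.24, SE 0.0626, edgeR adjusted p 0.181, and 0.0239 without the filter on low counts). Arpp19, a substrate of the Greatwall kinase that restrains PP2A in mitosis, had 0.13 (adjusted p 0.207), and Zwint, a kinetochore protein, had 0.15 (adjusted p 0.227). In both genes all PTRVITRO libraries lay above all PVITRO libraries. Of further kinetochore genes in this list, Dsn1 (-0.06) and Cenpi (-0.02) had log2 fold changes below 0, with intervals that spanned 0. Values above 0 were 0.02 for Cenpm and Ska2, 0.03 for Knl1 and Cenpa, 0.06 for Kntc1 and 0.08 for Zwilch and Ska3. Nsl1 had 0.09, Zw10 and Cenpn 0.10, Mis12 0.15, Ska1 0.18 and Cenpk 0.22.

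The transcription factors that act on G2/M promoters were split in direction. Of 24 tested genes, 15 were above 0 and 9 below, the median log2 fold change was 0.0086, and none passed the test. Foxm1, an activator of G2/M genes, was at 62.2 ± 2.597 CPM in PVITRO and 64.1 ± 2.83 CPM in PTRVITRO (SD, n = 3; log2 fold change 0.05, interval -0.06 to 0.15). Mybl2, which encodes B-MYB, had -0.03, the MuvB subunit gene Lin54 had 0.04, E2f1 had 0.01 and Rb1 had -0.10. The genes with the smallest p were E2f6 (0.14, adjusted p 0.266), Tfdp1, the E2F partner DP1 (-0.13, adjusted p 0.281), and Nfyb, a subunit of the NF-Y factor (0.14, adjusted p 0.292). Their groups did not overlap, with E2f6 and Nfyb higher and Tfdp1 lower in PTRVITRO.

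G1 cyclins and CDK inhibitors gave 12 tested genes, of which 7 were above 0 and 5 below. The median log2 fold change was 0.0031, and no gene had an unadjusted p below 0.05. Cdkn1a (p21), a CDK inhibitor induced by p53, was at 300.5 ± 10.9 CPM in PVITRO and 290.6 ± 12.1 CPM in PTRVITRO (SD, n = 3; log2 fold change -0.05, interval -0.14 to 0.04). Ccnd1, cyclin D1, had 0.04, Ccne1 had 0.14, Cdkn1b had 0.07, Ccne2 had 0.23 (adjusted p 0.467) and Cdkn2d had -0.29 (adjusted p 0.608). Ccne1, Ccne2 and Cdkn2d were below 12 CPM in every library and had intervals that spanned 0.

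DNA replication genes, which peak before the G2/M genes in the cycle, had a median log2 fold change of 0.06 over 46 tested genes. Of these, 33 were above 0, 13 were below and none passed the test, and 9 with higher values and 1 with a lower value in PTRVITRO had an unadjusted p below 0.05 (21.7% together), beside 11.4% of all tested genes (5.26% higher and 6.13% lower). Gins1, a subunit of the replicative helicase, was at 12.1, 11.4 and 11.8 CPM in PVITRO and 15.7, 13.98 and 13.8 CPM in PTRVITRO (log2 fold change 0.31, SE 0.0779, edgeR adjusted p 0.172, and 0.0351 without the filter on low counts). Prim1 had 0.17 (adjusted p 0.213) and Mcm10 0.18 (adjusted p 0.225), whereas the helicase subunit gene Mcm2 had -0.05 with overlapping groups. In these windows the CHR letters were present in 18.9% of 37 replication genes and 61% of 77 other mitosis genes. NF-Y letters were present in 62.2% of the same replication genes and 63.6% of the same other mitosis genes.

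**Figure D5:**
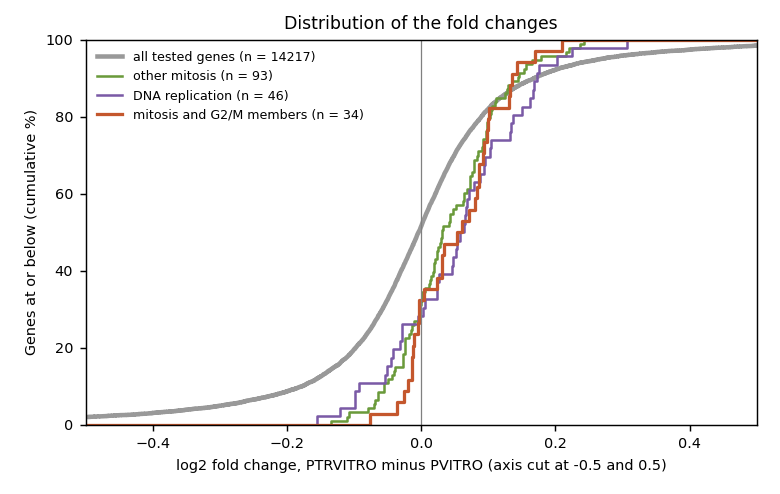
Cumulative share of genes (y axis, %) by log2 fold change (x axis, which leaves out larger changes) for the 34 mitosis and G2/M genes, 93 other mitosis genes, 46 DNA replication genes and all 14217 tested genes. The curves of the cell cycle lists lie to the right of that of all genes near 0, with medians of 0.06, 0.03 and 0.06 against -0.004.

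The strand setting of the authors' counting was not given in the sources used here. Genes on the opposite strand with a mean count above 100 overlap Ccna2 (Exosc9), Cdc20 (Elovl1), Nusap1 (Oip5), Kif20a (Cdc23) and Prc1 (Rccd1), and reads of these pairs may be hard to separate.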

How the data were processed

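Polyadenylated RNA of 6 EMT6 samples (3 PVITRO, 3 PTRVITRO) had been sequenced from stranded libraries. The authors aligned reads to GRCm38 (GENCODE M16) with STAR 2.6.0a and deposited gene-level estimated counts from RSEM 1.3.1, which are not scaled between samples. Depth ran from 17757341 to 32426739 counts per sample, and floors of 3 counts and intervals of counts cover counting error only. Here the estimated counts were rounded, genes were filtered with filterByExpr (minimum count 10, minimum total 15), libraries were scaled by the upper quartile, and PTRVITRO was set against PVITRO in edgeR 4.0.16 (R 4.3.3; quasi-likelihood F test, no covariate), with Benjamini-Hochberg adjustment over all tested genes. SEs were derived from the F statistic, and 95% intervals from its denominator degrees of freedom. Mean log2 CPM used a prior count of 2. Symbols, positions and exon lengths came from GENCODE M21 (GRCm38), with the APPRIS principal transcript as length, and promoters from RefSeq (GRCm38.p6). Copies of a member were transcripts that BLAST 2.17.0 matched to it over 200 bases or more with 95% identity or more.

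The genes named were those with an unadjusted p below 0.05, the 2 largest and 2 lowest fold changes, 11 representatives of the roles, 10 cell cycle regulators and the 3 smallest p of each further list, and Cd274, and further genes in the text were picked once their values were known. The members, lists and rules were chosen with earlier results of these data known. The fit was repeated with other tools (DESeq2 1.42.0 and voom of limma 3.58.1), with TMM or unscaled libraries, unfiltered or with a minimum of 10 counts in each sample, with a replicate block, and with each sample left out in turn. A prior count of 0.5 was tried for the mean log2 CPM alone.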

Additional observations from a re-analysis of the deposited data

How the results depend on the processing

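No mitosis and G2/M gene passed the threshold in any of the 14 fits, and the lowest adjusted p of any of them was 0.0754. Genes with an unadjusted p below 0.05 numbered 12 without a scaling factor and from 3 (without PVITRO replicate 3 or PTRVITRO replicate 2) to 11 (without PVITRO replicate 1), with 4 without PTRVITRO replicate 1. Values above 0 numbered 21 to 31 with 1 library left out, and the median ran from 0.0158 to 0.0963. Over all genes, 35 were called, beside 400 in the unfiltered fit, 111 by DESeq2, 68 with a replicate block and 54 where each sample had to hold 10 counts. Leaving out 1 library gave 8 (PTRVITRO replicate 3), 9 (PVITRO replicate 3), 11 (PVITRO replicate 1), 12 (PTRVITRO replicate 2) or up to 64 calls (PVITRO replicate 2). Without a filter 1 other mitosis gene (G2e3) and 1 DNA replication gene (Gins1) were called. The causes were not tested.

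Among single genes, 231 of 238 comparisons with other settings kept direction and side of the threshold. The sign turned without a scaling factor for Ccna2 (0.0011), Aurkb (0.0096), Kif23 (0.009) and Top2a (0.0076), with limma-voom for Aurkb (0.0089) and Kif23 (0.0025), and with the 10-count minimum for Ccnb1 (-0.0003). With 1 library left out, it turned in 27 of 204 comparisons, with ranges from -0.067 to 0.0353 for Ccna2, from -0.0645 to 0.1375 for Ccnb2, from -0.0538 to 0.0743 for Aurkb, from -0.0056 to 0.1036 for Birc5, from -0.0687 to 0.0307 for Plk1, from -0.0388 to 0.0321 for Ttk, from -0.0434 to 0.0134 for Cdc20, from -0.0069 to 0.0509 for Kif11, from -0.0586 to 0.1271 for Kif2c, from -0.0086 to 0.0985 for Kif20a, from -0.037 to 0.0449 for Kif23, from -0.0599 to 0.0268 for Racgap1, from -0.0605 to 0.0613 for Anln and from -0.0242 to 0.0293 for Top2a. Without sign change, Cdc25c ran from -0.1247 (without PTRVITRO replicate 1) to -0.0301 (without PTRVITRO replicate 2), Bub1b from -0.0652 (without PTRVITRO replicate 1) to -0.0119 (without PTRVITRO replicate 3) and Tpx2 from 0.0086 (without PTRVITRO replicate 1) to 0.0679 (without PVITRO replicate 1). Direction was the same in all 14 fits for 17 genes above 0 and for Bub1b and Cdc25c below 0. The median of all genes ran from -0.0109 to 0.0084. The labels do not say if equal replicate numbers link samples. Correlations of deviations over all tested genes between equal numbers were 0.109, 0.095 and -0.0556, which does not settle whether replicates of equal number belong together. In the fit with a replicate block, 9 of the 34 genes had an unadjusted p below 0.05. The lowest count of the 34 genes was 283 (Cdc25c), and how far depth limits their comparison was not tested.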
